A study of Mus musculus with 4 samples.

Results

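The genes described here are 10 genes of blood vessel growth and of the capillary endothelium in skeletal muscle: 5 secreted ligands (Vegfa, Vegfb, Apln, Angpt1 and Angpt2), 3 receptors (Kdr, Flt1 and Tek) and 2 proteins of endothelial junctions (Pecam1 and Cdh5). They were chosen by name as capillary markers and angiogenic signals, out of 32868 gene names in the expression tables. Each had 1 row in every table, and all 10 passed the filter on low values. The RNA was of C57BL/6 mice at postnatal day 21, from the tibialis anterior, the fast-twitch muscle along the shin. The Het group had the genotype Nf1flox/+/Myf5+ and the Nf1-KO group Nf1flox/flox/Myf5+, with 2 libraries each. Both groups therefore carried a floxed Nf1 allele and Myf5+, which in such crosses usually stands for a Cre driver of muscle precursors, although the labels do not say so. The labels do not say whether the 2 libraries of a group came from separate animals, so the p-values measure the spread between these libraries, which may be technical.

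VEGF-A is the main growth factor for capillaries. It binds the receptors Kdr (VEGFR2), which carries most of the growth signal, and Flt1 (VEGFR1), which binds VEGF strongly but signals weakly and can act as a trap. VEGF-B, made in quantity by muscle and heart, binds Flt1 and not Kdr, and has been linked to fatty acid uptake by endothelium. Angiopoietin 1 activates the endothelial receptor Tek (Tie2) and keeps vessels quiet, while angiopoietin 2, released by endothelium that is being remodelled, often opposes it. Apelin, the peptide encoded by Apln, acts through the receptor Aplnr and is typical of sprouting capillaries. Pecam1 (CD31) and Cdh5 (VE-cadherin) hold endothelial cells together and are commonly used to gauge how much endothelium a tissue sample holds. In a whole-muscle sample, fewer cells of a type and less RNA per cell cannot be told apart.

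The labels were checked first. Nf1 stood at 1.09 and 1.01 RPKM (a read density corrected for gene length and library depth) in Het against 0.89 and 0.85 RPKM in Nf1-KO. This is a log2 fold change of -0.18 (SE 0.057, limma adjusted p 0.041), a small fall in a value that covers all exons and all cells of the muscle. The call did not hold when any of the 4 libraries was left out (limma adjusted p 0.057 to 0.179) or with values as deposited (0.094). The pseudocount compresses a gene at this level, and without it the scaled level in Nf1-KO was 0.776 of that in Het. The authors' deposited table called Nf1 lower (log2 fold change -0.38, adjusted p 0.0026). The muscle fibre genes were as the tissue label says, with Ckm between 5562 and 5938 RPKM and Acta1 between 12305 and 15930 RPKM. Replicates were close, with a median coefficient of variation of 2.02% (Het) and 1.91% (Nf1-KO) over 4827 genes of at least 5 RPKM. Of 10690 genes tested, 50.3% differed at a limma adjusted p under 0.05, with 2660 higher and 2712 lower in Nf1-KO. With values as deposited and not scaled, 3760 were higher and 1883 lower, so 66.6% of calls were higher against 49.5%. A call by itself is therefore common in these data, and the sizes matter more.

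The vascular signals did not move together. Vegfb, Angpt1 and Flt1 were clearly higher in Nf1-KO, Kdr and Apln were lower, and Vegfa and Cdh5 did not pass the test. Tek and Pecam1 were slightly higher and Angpt2 lower, with calls that were lost under other settings. In all, 8 of the 10 genes passed the threshold, where 50.3% of all tested genes did. Of these, 5 were higher, as were 24.9% of all tested genes, and 3 lower, as were 25.4%. Their median log2 fold change was 0.044 against 0.00051 for all tested genes, and their median absolute log2 fold change was 0.24 against 0.16. By the values as deposited, the groups did not overlap in 9 of the 10 genes, where 77.3% of all tested genes do not overlap. By the scaled values it was also 9 of 10, against 76.3%, with Vegfa in place of Cdh5 among the 9. In the authors' deposited table, a DESeq2 comparison of the same libraries, 31.7% of genes were called, and among the 10 genes 3 were higher and 2 lower. Those 5 were Vegfb, Angpt1, Flt1, Kdr and Apln.

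**Figure D1:**
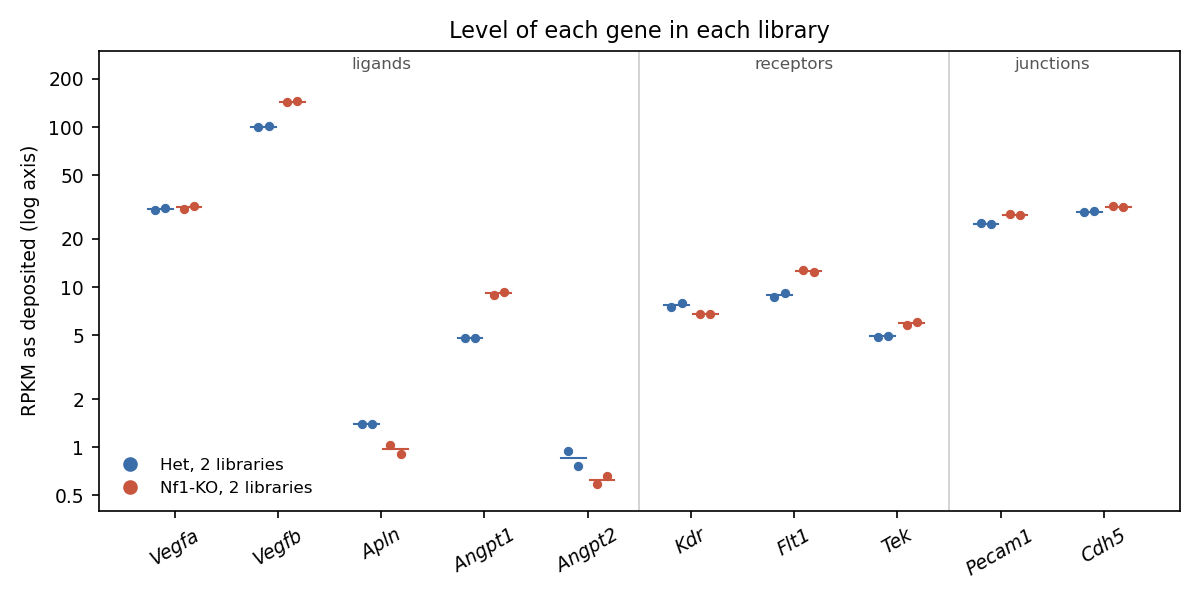
Level of each of the 10 genes in each library, in RPKM as deposited, on a log axis. Each point is a library (blue Het, red Nf1-KO), and the short line is the mean of the 2 libraries of a group. The groups stand clearly apart for Vegfb and Angpt1, while the points for Vegfa interleave.

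In RPKM, which is per gene length, Vegfb was by far the most abundant of the 10, at 100.8 RPKM in Het and 144 RPKM in Nf1-KO. Vegfa, Cdh5 and Pecam1 followed at 24.9 to 30.9 RPKM in Het and 28.3 to 31.7 RPKM in Nf1-KO. The receptors Flt1, Kdr and Tek came next, and Apln and Angpt2 were the lowest, at 1.39 and 0.85 RPKM in Het. The order of mean levels differed between the groups at 2 places. Angpt1 stood below Kdr and Tek in Het (4.80 RPKM against 7.71 and 4.93 RPKM) and above them in Nf1-KO (9.17 RPKM against 6.79 and 5.95 RPKM). Vegfa stood above Cdh5 in Het, whereas their ranges overlapped in Nf1-KO. No other pair of neighbours in the order overlapped within a group. The counts behind these levels differ widely. In the authors' deposited table, the normalized count averaged over the libraries was 7401 for Vegfb and 6503 for Vegfa but 177 for Apln and 125 for Angpt2. Counting error alone would give a coefficient of variation of 7.51% for Apln and 8.93% for Angpt2, against 1.16% for Vegfb.

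The promoters of Vegfb and Flt1, a ligand and its receptor that were both higher, and of Kdr and Apln, which were both lower, are shown to set genes that moved in opposite directions side by side. RefSeq sequences (GRCm38.p6) were found for 6 of the 10 genes. Each run is the 250 bases before the annotated start, 5′ to 3′ on the gene's strand. They lie at chr19:6987652-6987901 (Vegfb), chr5:147726012-147726261 (Flt1), chr5:75978456-75978705 (Kdr) and chrX:48034854-48035103 (Apln), all on the minus strand. Capitals mark the 2 motifs found on either strand, the Sp1 box GGGCGG (also read as CCGCCC) and the Ets core GGAAG (also read as CTTCC).
Vegfb: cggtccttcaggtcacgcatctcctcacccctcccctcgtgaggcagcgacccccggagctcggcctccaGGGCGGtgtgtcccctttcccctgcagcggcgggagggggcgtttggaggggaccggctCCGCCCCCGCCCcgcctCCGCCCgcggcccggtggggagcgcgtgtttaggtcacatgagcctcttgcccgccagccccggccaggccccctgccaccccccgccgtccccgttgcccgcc
Flt1: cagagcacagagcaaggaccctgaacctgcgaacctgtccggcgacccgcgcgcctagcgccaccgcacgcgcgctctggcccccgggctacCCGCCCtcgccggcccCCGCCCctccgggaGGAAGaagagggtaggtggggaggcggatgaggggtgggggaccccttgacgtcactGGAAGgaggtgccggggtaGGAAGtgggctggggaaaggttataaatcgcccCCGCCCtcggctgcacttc
Kdr: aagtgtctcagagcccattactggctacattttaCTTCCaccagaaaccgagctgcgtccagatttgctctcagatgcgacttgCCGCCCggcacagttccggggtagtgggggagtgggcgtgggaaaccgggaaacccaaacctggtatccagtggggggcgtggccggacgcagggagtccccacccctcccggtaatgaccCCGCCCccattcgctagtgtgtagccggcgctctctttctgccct
Apln: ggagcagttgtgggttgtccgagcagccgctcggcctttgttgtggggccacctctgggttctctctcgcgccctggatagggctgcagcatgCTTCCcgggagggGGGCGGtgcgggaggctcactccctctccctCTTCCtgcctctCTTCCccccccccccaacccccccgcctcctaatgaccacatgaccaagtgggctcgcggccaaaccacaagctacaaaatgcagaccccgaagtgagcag
The Vegfb window held 4 Sp1 boxes and no Ets core, and that of Flt1 held 3 of each. The Kdr window held 2 Sp1 boxes and 1 Ets core, and the Apln window 1 Sp1 box and 3 Ets cores. The hits do not overlap each other. Of 32851 windows of the same length, 32.7% hold an Sp1 box and 64.1% an Ets core, so neither match is rare. The hypoxia response element core ACGTG (16.6% of windows) and the binding motif of oestrogen-related receptors AAGGTCA (4.08%) were also searched and are not in these 4 windows. Of the Vegfa windows, not printed here, the one at chr17:46025164-46025413 held 1 match to ACGTG. The one at chr17:46032378-46032627 held no match. For neither window were the bases that follow it found in a GENCODE M21 transcript of Vegfa, so neither was shown to be its promoter. The GC content was 76.4% for Vegfb, 70.4% for Flt1, 61.6% for Kdr and 65.2% for Apln, against a median of 52.4%. The window of Tek, which was also called higher but is not printed, had a GC content of 51.2%. It held no Sp1 box and no Ets core. These are descriptions of the letters and were not tied to the expression values by any test.

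Among the VEGF ligands, Vegfb was higher in Nf1-KO and Vegfa did not pass the test. Vegfb was 100.1 and 101.5 RPKM in Het and 143.6 and 144.6 RPKM in Nf1-KO. Both Nf1-KO libraries were far above both Het libraries, and the replicate SD was under 1 RPKM in each group. Vegfb had a log2 fold change of 0.42 (SE 0.020, 95% interval 0.37 to 0.47, limma adjusted p 1.8e-05), a 1.34-fold rise. Vegfa was 30.6 and 31.3 RPKM in Het and 30.9 and 32.4 RPKM in Nf1-KO, with the libraries of the groups interleaved. Its log2 fold change was -0.06 (SE 0.032, 95% interval -0.14 to 0.018, limma adjusted p 0.169), and with values as deposited the sign turned (0.031, limma adjusted p 0.446). The interval leaves room for a fall of up to 0.14 on the log2 scale.

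The angiopoietins moved in opposite directions. Angpt1 was 4.82 and 4.79 RPKM in Het and 8.96 and 9.38 RPKM in Nf1-KO, the largest change of the 10 genes. Both Nf1-KO libraries were far above either Het library, and the ratio of mean RPKM was 1.91 as deposited and 1.79 after scaling. On the log2(RPKM + 1) scale the change was 0.73 (SE 0.042, 95% interval 0.63 to 0.83, limma adjusted p 3.9e-05). The authors' deposited table gave 0.83. An exon of Angpt1 overlaps one of Gm17473 on the opposite strand in GENCODE M21, and no source used here says if reads were counted by strand. Angpt2 was 0.94 and 0.76 RPKM in Het and 0.59 and 0.66 RPKM in Nf1-KO. The groups did not overlap, but the Het libraries differed from each other by more than the gap between the groups. The fall was -0.23 on the log2 scale (SE 0.070, limma adjusted p 0.037). Without Het replicate 1 it was -0.16 with an adjusted p of 0.125, the call was also lost without either Nf1-KO library, and the authors' deposited table did not call it (adjusted p 0.111). Apln, the apelin precursor, was 1.39 RPKM in each Het library and lower in Nf1-KO, at 1.03 and 0.91 RPKM, without overlap. Its log2 fold change was -0.33 (SE 0.059, 95% interval -0.47 to -0.19, limma adjusted p 0.0046). The pseudocount of 1 compresses genes at this level: with 0.1 the fold changes were -0.57 for Apln and -0.47 for Angpt2.

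The VEGF receptors diverged. Kdr was 7.52 and 7.91 RPKM in Het and 6.82 and 6.75 RPKM in Nf1-KO. Both Nf1-KO libraries lay below both Het libraries. Kdr had a log2 fold change of -0.25 (SE 0.042, 95% interval -0.35 to -0.14, limma adjusted p 0.0040). Flt1 was 8.72 and 9.17 RPKM in Het and 12.8 and 12.5 RPKM in Nf1-KO, again without overlap but in the other direction. Its log2 fold change was 0.37 (SE 0.040, 95% interval 0.27 to 0.47, limma adjusted p 5.4e-04). The deposited values do not separate the membrane-bound and soluble forms of Flt1. Tek, the angiopoietin receptor, was 4.89 and 4.97 RPKM in Het and 5.81 and 6.09 RPKM in Nf1-KO. Both Nf1-KO libraries were above the Het libraries by a margin larger than the replicate spread, but the rise was small. Its log2 fold change was 0.15 (SE 0.044, limma adjusted p 0.032). Tek lost its call when either Het library or Nf1-KO replicate 2 was left out (limma adjusted p 0.082 to 0.142), and in the authors' deposited table (0.128).

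The junction genes differed little. Pecam1 was 25.1 and 24.7 RPKM in Het and 28.6 and 28.1 RPKM in Nf1-KO. Nf1-KO was higher in both libraries, and after scaling the log2 fold change was 0.087 (SE 0.028, limma adjusted p 0.041). It was lost without either Het library or Nf1-KO replicate 1 (limma adjusted p 0.109 to 0.167) and was not called in the authors' deposited table (0.201). Cdh5 was 29.6 and 29.8 RPKM in Het and 31.9 and 31.5 RPKM in Nf1-KO. The deposited values did not overlap, whereas the scaled values did. Scaled, the log2 fold change was 0.0011 (SE 0.026, 95% interval -0.062 to 0.064, limma adjusted p 0.976). With values as deposited it was 0.093 and passed the threshold (limma adjusted p 0.024). On the same scaling, Vegfb, Angpt1 and Flt1 had log2 fold changes of 0.42, 0.73 and 0.37. Any part of the amount of endothelium in these was not tested.

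**Figure D2:**
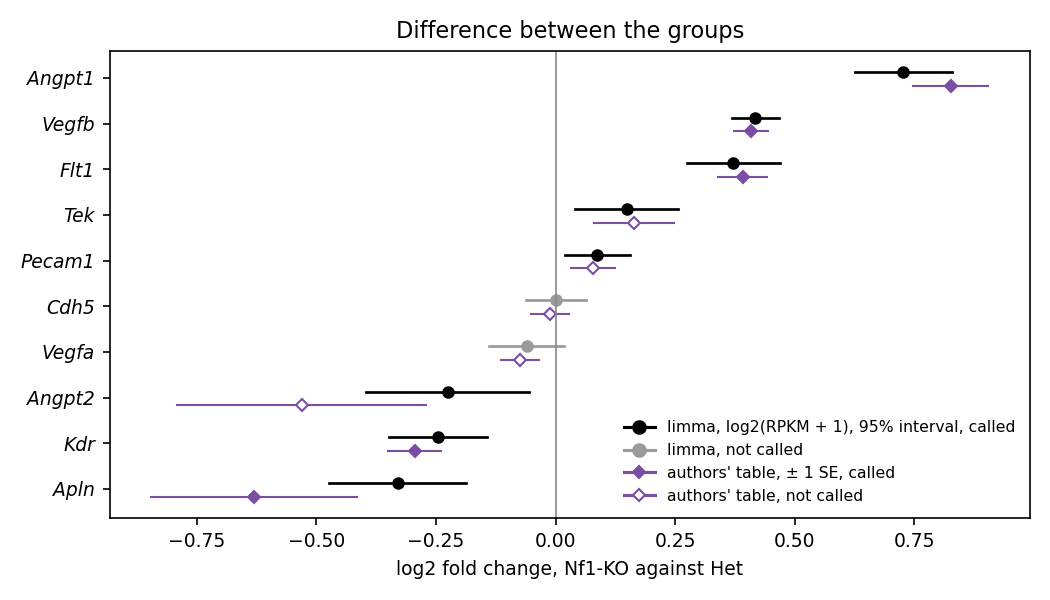
Log2 fold change of Nf1-KO against Het for each gene, with limma estimates and their 95% intervals (circles) above the authors' deposited values with 1 SE (diamonds, filled where called). The intervals of Angpt1, Vegfb and Flt1 lie well above 0 and those of Kdr and Apln below it. Those of Cdh5 and Vegfa include 0.

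Ratios within a library do not depend on the scaling between libraries, and 4 were computed. The ratio of Angpt2 to Angpt1 was 0.195 and 0.159 in Het and 0.0658 and 0.0704 in Nf1-KO, which makes it 2.58-fold lower in Nf1-KO. The ratio of Flt1 to Kdr was 1.16 in each Het library and 1.88 and 1.85 in Nf1-KO, 1.61-fold higher. The groups were far apart in both ratios relative to their replicates. For Vegfa to Vegfb the ratio was 0.305 and 0.308 in Het, against 0.215 and 0.224 in Nf1-KO. Vegfa relative to the junction genes (the geometric mean of Pecam1 and Cdh5) was 1.12 and 1.15 in Het and 1.02 and 1.09 in Nf1-KO, a smaller gap that is close to the spread of the Nf1-KO libraries. With 2 libraries against 2 the exact two-sided permutation test cannot go below 0.33. Each ratio reached that value, also after Benjamini-Hochberg adjustment over the 4, so none can be called by this test.

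**Figure D3:**
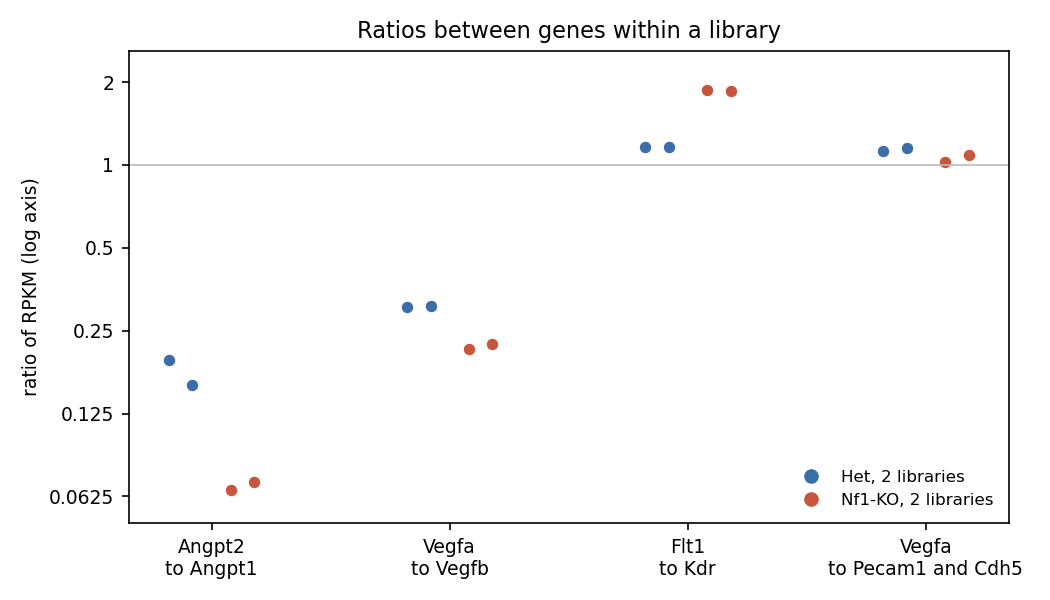
Ratio of RPKM between genes in each library, on a log axis, with Het in blue and Nf1-KO in red. The Angpt2 to Angpt1 ratio is 0.195 and 0.159 in Het and 0.0658 and 0.0704 in Nf1-KO, and the Flt1 to Kdr ratio 1.16 against 1.88 and 1.85, while Vegfa relative to the junction genes lies between 1.02 and 1.15.

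The direct partners of the 10 genes were then compared. Aplnr, the apelin receptor, was lower like its ligand. It was 2.50 and 2.43 RPKM in Het and 1.20 and 1.06 RPKM in Nf1-KO, a log2 fold change of -0.76 (SE 0.059, limma adjusted p 1.3e-04). Apela, the other apelin receptor ligand, was listed at 0 in all 4 libraries. Nrp1, a co-receptor that strengthens VEGF-A signalling through Kdr, fell with Kdr (log2 fold change -0.22, limma adjusted p 0.010). Nrp2, its relative in veins and lymphatics, had a log2 fold change of -0.12 and did not pass (limma adjusted p 0.132). Tie1, the orphan partner of Tek, had a log2 fold change of -0.12 (limma adjusted p 0.040), but the call was lost when any library was left out (0.060 to 0.239). Ptprb, the phosphatase that restrains Tek, did not pass (log2 fold change 0.033, limma adjusted p 0.64). Pgf, a ligand of Flt1, was 0.52 and 0.61 RPKM in Het and 0.34 RPKM in each Nf1-KO library. It passed the filter only through the Het libraries, where it was high, so its limma result is not used, and the authors' deposited table did not call it (adjusted p 0.17). Figf (VEGF-D) had a log2 fold change of 0.21 (limma adjusted p 0.038), lost without Het replicate 2 or Nf1-KO replicate 1 (0.155 and 0.148). Vegfc and its lymphatic receptor Flt4 did not pass (log2 fold changes 0.15 and 0.0027, limma adjusted p 0.079 and 0.971). Angptl4, an angiopoietin-like secreted inhibitor of lipoprotein lipase, rose from 0.75 and 0.81 RPKM to 3.79 and 3.60 RPKM, a log2 fold change of 1.34. Angptl2 fell by 0.32 on the log2 scale.

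Other genes of the vessel wall, of its regulators and of other cells were described by lists, and each count is to be read against all tested genes, of which 24.9% were higher, 25.4% lower and 50.3% either. Of 28 tested genes in a wider list of 30 endothelial genes, 9 were higher, 4 lower and 15 did not pass, with a median log2 fold change of 0.064. The share called, 46.4%, is below that of all tested genes. With values as deposited 14 were higher and 4 lower. Eng (endoglin, a co-receptor for TGF-beta family ligands) rose from 10.8 and 11.2 RPKM to 18.9 and 18.3 RPKM, a log2 fold change of 0.62. Gpihbp1, which carries lipoprotein lipase to the capillary lumen, rose by 0.40 on the log2 scale. Cd93 and Cd34, surface glycoproteins of endothelium and of progenitor cells, fell by 0.67 and 0.62. Cd34 went from 14.6 and 13.9 RPKM to 9.57 and 9.45 RPKM, and Cd93 from 10.7 and 10.2 RPKM to 6.68 and 6.66 RPKM, neither with overlap. The summed level of the list was taken as deposited, and scaling narrows its gap between the groups. It was 356 to 366 RPKM in Het and 408 to 410 RPKM in Nf1-KO. The most abundant of these are Aqp1 (the water channel aquaporin 1) and Cav1 (caveolin 1), which moved in opposite directions, with log2 fold changes of 0.20 and -0.35.

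Genes of endothelial Notch signalling and flow response included 5 higher, none lower and 5 not passing among 10 tested by limma, with a median of 0.17. That is 50% called, against 50.3% of all tested genes, and with no filter 3 were higher. None was lower at an unadjusted limma p under 0.05 or by the authors' deposited table either. Klf4, a transcription factor induced by flow, was 4.63 and 4.56 RPKM in Het and 8.69 and 8.93 RPKM in Nf1-KO (log2 fold change 0.73, limma adjusted p 3.3e-05). Ephb4 rose by 0.40, and Klf2, Hey1 and Efnb2 rose by 0.39, 0.35 and 0.26. Nr2f2 did not pass (log2 fold change 0.0066, limma adjusted p 0.952). Dll4, the Notch ligand of sprouting tip cells, did not pass (log2 fold change 0.015, limma adjusted p 0.881). Notch4 was listed at 0 throughout, which can be a failed estimate. The list for mural cells, the pericytes and smooth muscle that wrap vessels, also holds Pdgfb, an endothelial ligand. It had 3 genes higher and 5 lower, Pdgfb among these, of 14 tested (57.1% called, against 50.3% of all tested genes). The authors' deposited table, which rests on another test, called 2 of the 14 lower and 3 higher. With values as deposited, limma called only 2 lower and 4 higher, so the order of its counts depends on the scaling. The median was 0.0072 and turned to -0.013 when libraries were scaled to the sum without the 20 most abundant genes. Acta2 and Rgs5 rose by 0.38 and 0.31 on the log2 scale. Pdgfb, the endothelial ligand that recruits pericytes, fell by 0.56, from 4.62 and 5.19 RPKM to 3.26 and 3.17 RPKM. Abcc9, a potassium channel subunit that muscle fibres also express, fell by 0.30.

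**Figure D4:**
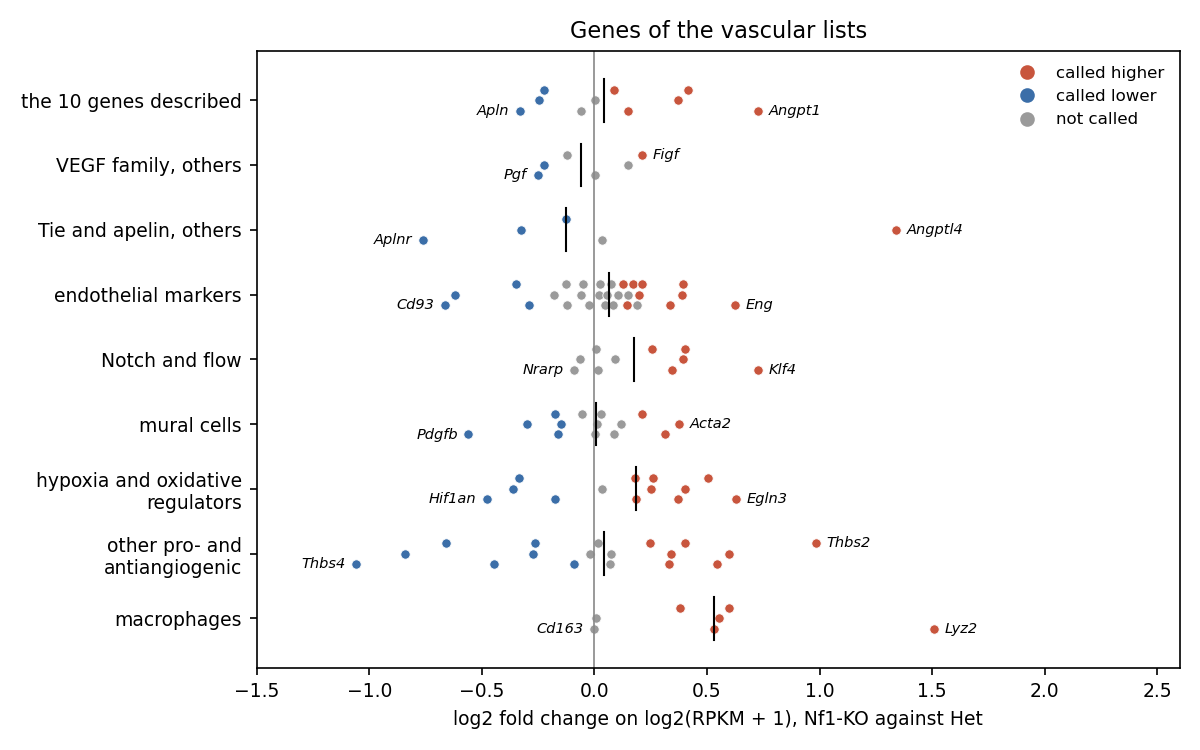
Log2 fold change of every tested gene of the vascular lists, with called genes in red (higher) or blue (lower), others in grey, and the median of each list as a black line. Called genes lie on both sides of 0 in most of the lists drawn, while those of the Notch and flow list and the macrophage list lie on the higher side. The row of other VEGF genes also draws Pgf, whose limma result is not used, and its median counts Pgf.

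Vegfa responds to oxygen supply and to oxidative co-activators, so genes of those pathways were compared. Of 13 tested genes, 8 were higher and 4 lower, where 24.9% and 25.4% of all tested genes were, with a median of 0.18. Hif1a, the oxygen-regulated subunit of the hypoxia factor, was 2.46 and 2.78 RPKM in Het and 3.84 and 4.23 RPKM in Nf1-KO (log2 fold change 0.40, limma adjusted p 0.0034). Epas1 (HIF-2 alpha), abundant in endothelium, rose from 56.1 and 55.8 RPKM to 72.4 and 71.1 RPKM, a log2 fold change of 0.26. Ppargc1a and Esrra, the co-activator and nuclear receptor that drive oxidative genes and can induce Vegfa in muscle, rose by 0.37 and 0.25. Ppargc1b, a relative of Ppargc1a, was lower (log2 fold change -0.17, limma adjusted p 0.048) but was not called in the authors' deposited table (0.071). Of the relatives of Esrra, Esrrb rose by 0.50 and Esrrg did not pass (log2 fold change 0.036, limma adjusted p 0.460). Egln3, a prolyl hydroxylase that is itself a hypoxia target, rose by 0.63. Egln2, another prolyl hydroxylase, and Hif1an, which restrains HIF activity, fell by 0.36 and 0.48. These values are of RNA, and HIF proteins are regulated mainly by their stability.

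Among 18 tested other pro- and antiangiogenic genes, 7 were higher and 7 lower, with a median of 0.042. All tested genes are split about as evenly, at 24.9% higher and 25.4% lower. Fgf1, a growth factor for many cell types, rose from 10.5 and 10.8 RPKM to 17.5 and 18.0 RPKM (log2 fold change 0.60). Thbs2, an antiangiogenic thrombospondin, rose from 0.54 and 0.44 RPKM to 2.05 and 2.04 RPKM (0.98, with only 1 Het library at the filter), whereas Thbs4, a thrombospondin of muscle and tendon, fell from 9.69 and 9.73 RPKM to 4.47 and 4.41 RPKM (-1.06). Col4a1, the basement membrane collagen of vessels and fibres, fell by 0.84. Its annotated exons overlap those of Col4a2.

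Markers of other cells also moved with the genotype. Of 9 macrophage markers 7 were tested and 5 were higher, where 24.9% of all tested genes were. The summed level of the 9, as deposited, was 14.3 to 14.8 RPKM in Het and 36.0 to 36.2 RPKM in Nf1-KO. Most of that sum is Lyz2 (7.47 and 7.38 RPKM against 24.4 and 24.6 RPKM). Cd68 had a log2 fold change of 0.60 (limma adjusted p 0.020) that was lost without Het replicate 1 (0.086) or with no filter (0.123), and only 1 Het library reached the filter. Cd163 and Mrc1 of resident macrophages did not pass. Emr1 was listed at 0, which can be a failed estimate. Of 8 fibroblast and adipocyte markers 6 were tested by limma and 5 were higher, where 24.9% of all tested genes were. Adipoq had a log2 fold change of -0.19 (limma adjusted p 0.058), and Lep, below the filter, was called lower in the authors' deposited table (log2 fold change -2.40, adjusted p 0.0025). The summed levels of the 8, as deposited, were 253 to 257 RPKM in Het and 368 to 370 RPKM in Nf1-KO. Col1a1 rose by 1.57 and Fabp4, which capillary endothelium also expresses, by 0.42 on the log2 scale. Angpt1 is made by mural and stromal cells as well as muscle, and the part that these cells have in its rise was not tested. Haemoglobin genes Hba-a2, Hbb-b1 and Hbb-b2 were listed at 0, which again can be a failed estimate, and Hba-a1 at no more than 0.05 RPKM, and the 8 blood markers summed to 1.54 to 2.02 RPKM. Of 7 muscle fibre markers 3 were higher and 4 lower, where 24.9% and 25.4% of all tested genes were. Mb (myoglobin) and Myh1 rose by 0.72 and 0.52, and Myh4 and Acta1 fell by 1.08 and 0.45 on the log2 scale. In GENCODE M21, exons of Eng, Cd34, Ephb4, Abcc9, Hif1a, Egln2, Esrra, Mb and Myh1 overlap those of another gene on the opposite strand. Reads from such a stretch cannot be assigned without strand. Exons of Hif1a, Esrra and Nrp1 also overlap those of Gm49321, Mir6990 and Mir1903, in that order, on the same strand. There, strand would not separate the reads.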

How the data were processed

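Total RNA of 4 libraries (Het 1 and 2, Nf1-KO 1 and 2, grouped by title) was sequenced by the authors. Per the submitters' processing notes, reads were aligned with STAR 2.4.2a to mm9 and compared with DESeq2. The counting program, annotation, strand and DESeq2 version are not given in the sources used here. The authors deposited 1 value per gene, without a named unit, read here from the values as RPKM: values summed to 532315 to 547144 per library, and the authors' mean count per RPKM rose with transcript length with a log-log slope of 0.96 over 9101 genes. The authors' deposited table holds a signal (the mean of counts divided by size factors), a log2 fold change with its standard error, a score (their quotient) and a p-value with its adjusted p-value. Its direction was read from the libraries' own values. The depth per library is not given, and only that mean normalized count stands for it.

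Of 34682 rows, 33 with a number for a name were left out, and of rows that share a name the most abundant stayed. Libraries were scaled to their mean log profile by a trimmed mean without weights, which drops 30% of the log ratios and 5% of the abundances at either end (factors 0.969, 0.967, 1.03 and 1.03). Genes that reached 0.5 RPKM in 2 or more libraries were tested on log2(RPKM + 1) with limma 3.58.1 under R 4.3.3, with its variance trend, two-sided, with Benjamini-Hochberg adjustment over 10690 genes and a threshold of 0.05. Fold changes on this scale understate those of low genes. In data simulated for this comparison over 10690 genes, 96 of 100 changes of 0.3 and 100 of 100 changes of 0.6 (log2) were recovered, with 10 false calls. The simulated noise was normal, at the spread that limma's trend gives for a level, without further differences between genes. Far fewer genes were changed than the 50.3% called in the data, and evenly in both directions. The recovery and false calls in the data can therefore differ. Means, SD and summed levels are of deposited values, not scaled. Ratios were tested with exact permutation tests (SciPy 1.17.1).

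Genes named from the lists were the 2 largest called changes in each direction per list plus the direct partners and regulators of the 10 genes; Nf1, Dll4, Aqp1, Cav1, Ckm, Col4a2, Ppargc1b, Esrrg, Cd163, Mrc1, Adipoq, Lep, Prox1, Mmrn1, Reln, Esm1, Hif3a, Slit2, Hba-a1 and genes listed at 0 were named beside them. Klf2, Hey1, Efnb2 and Nr2f2 were also named. The 10 genes, lists and tests were chosen with earlier results of these data known. Lists are described by counts and medians, without a list test. Alternatives covered the pseudocount, filter, scaling, variance trend, replicate block, copies of a name, threshold and each library left out. Same-numbered libraries did not deviate together (correlation -0.018), so numbers were not taken as pairs. No batch is labelled. Expression was not tied to mm9 positions; promoter coordinates are of GRCm38.p6.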

Additional observations from a re-analysis of the deposited data

How the results depend on the processing

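Of 1413 values recomputed under 15 alternative settings, 1246 held: tests kept sign and call, and other values stayed within the replicate spread or within 1.5 times for counts. Vegfb, Angpt1, Flt1 and Kdr kept their calls in all 15, and Apln in the 14 that tested it. Cdh5, near 0, turned to -0.012 with no filter and -0.026 when scaled to the sum without the 20 most abundant genes, ran from -0.012 to 0.021 as each library was left out, and became a call (0.093) with values as deposited, where Vegfa turned to 0.031. Angpt2 lost its call with no filter (-0.23, limma adjusted p 0.10), values as deposited (-0.19, 0.067) and a threshold of 0.01 (-0.23), and ran from -0.30 to -0.16 as libraries were left out (0.021 to 0.138). Tek lost it with no filter (0.14, 0.072), the sum without the 20 most abundant genes (0.13, 0.059) and 0.01 (0.15), with leave-one-out values of 0.13 to 0.18. Pecam1 lost it with no filter (0.074, 0.082), that sum (0.060, 0.12), no variance trend (0.087, 0.108) and 0.01 (0.087), with leave-one-out values of 0.073 to 0.11. With the replicate number as a block, which costs 1 residual degree of freedom, Angpt2 (-0.23, 0.055) and Pecam1 (0.087, 0.054) lost their calls among the 10 genes, as did Tie1 (-0.12, 0.058) and Nf1 (-0.18, 0.056). The count of the 10 genes called higher went from 5 to 3 with no filter, that sum and 0.01, and was 3 to 4 as libraries were left out. The count called lower was 1 at 1 RPKM in every library, since Apln and Angpt2 then fall out. Values near 0 changed sign for Flt4 (-0.0059 with no filter, -0.015 with that sum, -0.0028 to 0.015 over left-out libraries) and Ptprb (-0.024 to 0.11 over left-out libraries). So did the median of the mural list (-0.0046 with no filter, -0.013 with that sum, -0.010 to 0.0011 over left-out libraries). The median of other VEGF genes ran from -0.065 to 0.00011 over left-out libraries. It counts Pgf, whose limma result is not used, unless a Het library is left out. Except where stated, the cause was not tested. The 4 ratios kept their direction in each of the 7 alternatives run for them. Apln and Angpt2, with few reads, are the least precise.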

Other observations

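Lymphatic endothelium was covered by 6 genes, of which Lyve1 and Pdpn were tested and both were higher. Lyve1, a hyaluronan receptor that some macrophages also carry, was 0.41 and 0.55 RPKM in Het and 1.03 and 1.06 RPKM in Nf1-KO (log2 fold change 0.43, limma adjusted p 0.0028, with only 1 Het library at the filter of 0.5 RPKM). Pdpn, which fibroblasts share, was 0.83 and 0.81 against 1.62 and 1.22 RPKM, and its call was lost without either Het library (limma adjusted p 0.061 and 0.051) and was not made in the authors' deposited table (0.068). Prox1, the defining lymphatic factor, lay at 0.20 to 0.28 RPKM in the 4 libraries and was below the filter, and Ccl21a was listed at 0, which can be a failed estimate. Mmrn1 and Reln, also below the filter, were called higher in the authors' deposited table (log2 fold changes 2.18 and 0.67, adjusted p 1.5e-05 and 0.036).

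Of all listed genes that lie below the filter, the authors' deposited table called 6, with 5 higher and 1 lower. They are Mmrn1, Reln, Esm1, Hif3a, Slit2 and, lower, the adipocyte hormone gene Lep, and they are named after their values were seen. Esm1, a product of VEGF-stimulated tip cells, was 0.13 and 0.17 RPKM in Het and 0.55 and 0.44 RPKM in Nf1-KO, with a log2 fold change of 1.58 in the authors' deposited table (adjusted p 0.012). Its direction is opposite to that of Apln, another tip cell product. Hif3a was 0.05 and 0.04 against 0.17 and 0.20 RPKM, with 1.94 in the authors' deposited table (adjusted p 5.1e-04). Slit2, a secreted guidance ligand, was 0.01 and 0.02 against 0.11 and 0.06 RPKM, with 2.47 in the authors' deposited table (adjusted p 4.7e-04).

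The 3 genes of at least 5 RPKM whose scaled values lay closest to those of Vegfa over the 4 libraries were Mtpn, Otud6b and Spcs3 (Euclidean distance 0.0064 to 0.011), and those closest to Pecam1 were Rtn4, Efcab2 and Psmb3 (0.0034 to 0.011), out of 4826 such genes. With 2 groups of 2 libraries, such closeness describes 1 difference and its noise.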
